A study of Mus musculus with 9 samples.

Results

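The 9 genes that mark resident tissue macrophages, Emr4, Itgad, Fcna, Cd5l, Vsig4, Marco, Spic, Hmox1 and Slc40a1, were followed in RNA-seq counts of mouse lymphomas driven by Bcl6. They are 9 of the 41128 genes in the count table, were picked by symbol, and all 9 passed the filter on low counts that left 14057 genes tested. The choice was made from measured values: Emr4, Itgad and Fcna had been seen to differ between the genotypes in these tumors, so every genotype difference of the 9 genes is given here as a description and no test is read from it. The tumors came from 3 Bcl6 mice (Smc3 wt/wt;Cγ1 wt/cre;IµBcl6) and 6 Smc3/Bcl6 mice (Smc3 wt/-;Cγ1 wt/cre;IµBcl6), 1 library per tumor. All 9 mice carried the IµBcl6 transgene, which keeps Bcl6 on in B cells, and the Cγ1-Cre allele, whose recombinase acts in B cells on their way into germinal centers. Loss of 1 Smc3 allele was therefore directed at B cells, and macrophages in the same tumor would keep both alleles. The study describes the RNA as coming from lymphoma cells of mesenteric nodes and gives no sorting step for it. The labels say mesenteric lymph node for replicate 1 of each genotype only and lymph node for the remaining 7. Age and sex are not given in the labels. Nothing in the labels says more of how the tumors are related, so the spread between libraries of a genotype is the spread between tumors plus the technical error.

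Macrophages of spleen, lymph node and liver take up aged red cells and debris from blood and lymph. Hemoglobin heme is opened by heme oxygenase, and the iron leaves the cell through ferroportin. The transcription factor encoded by Spic is needed for the red pulp macrophages of the spleen, which do much of this work, and scavenger and complement receptors such as Marco and Vsig4 mark macrophages that line sinuses. Csf1r, the receptor for the main macrophage growth factor, was used as the reference for how much macrophage RNA a tumor held.

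The total count per library ranged from 10156728 to 17774577. Smc3, the targeted gene, had 126, 99.5 and 88.1 CPM (read counts scaled to a common library size by TMM) in Bcl6 tumors 1 to 3 and between 27.9 and 111 CPM in the Smc3/Bcl6 tumors, so its level did not separate the genotypes. Of the libraries, 4 stood apart in ways that touch the results. Smc3/Bcl6 tumor 2 had a TMM factor of 0.693, against 0.964 to 1.10 in the other 8. Smc3/Bcl6 tumor 1 had the lowest level of Csf1r, at 10.7 CPM. Smc3/Bcl6 tumors 4 and 6 had the highest levels of most of the 9 genes. The fold changes that rest on them are given with and without them where a fit could be made. Correlations are too, but only as a range for the genes nearest to each of the 9. No 2 libraries held the same values.

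Promoters are shown for genes whose levels followed different courses across the tumors: Fcna and Vsig4, highest in Smc3/Bcl6 tumors 4 and 6, and Marco and Emr4, which did not have their 2 highest levels there. RefSeq windows on GRCm38.p6 matched 6 of the 9 genes (Emr4 under its newer symbol Adgre4, Fcna, Cd5l, Vsig4, Marco and Spic). The 250 bases before each start are printed 5′ to 3′ on the gene's strand, from chr2:25627975-25628224 (minus strand) for Fcna, chrX:96293439-96293688 (minus) for Vsig4, chr1:120505025-120505274 (minus) for Marco and chr17:55749734-55749983 (plus) for Emr4. Capitals mark GAGGAA, a purine-rich core of the kind bound by PU.1 and Spi-C, the ETS factors of macrophages, searched on both strands.
Fcna: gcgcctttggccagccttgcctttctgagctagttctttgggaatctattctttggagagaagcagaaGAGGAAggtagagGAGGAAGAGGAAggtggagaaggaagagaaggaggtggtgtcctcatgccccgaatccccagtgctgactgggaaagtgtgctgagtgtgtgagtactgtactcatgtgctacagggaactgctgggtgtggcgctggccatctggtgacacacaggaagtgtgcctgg
Vsig4: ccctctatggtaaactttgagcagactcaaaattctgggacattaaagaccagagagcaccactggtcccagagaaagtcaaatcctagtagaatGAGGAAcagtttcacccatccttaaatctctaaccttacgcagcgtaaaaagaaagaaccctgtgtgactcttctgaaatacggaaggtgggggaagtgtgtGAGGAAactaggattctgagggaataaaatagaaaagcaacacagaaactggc
Marco: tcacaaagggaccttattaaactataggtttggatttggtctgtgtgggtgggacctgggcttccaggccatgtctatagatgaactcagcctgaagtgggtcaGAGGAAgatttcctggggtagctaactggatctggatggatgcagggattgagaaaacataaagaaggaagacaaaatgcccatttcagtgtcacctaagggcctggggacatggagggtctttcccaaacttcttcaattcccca
Emr4: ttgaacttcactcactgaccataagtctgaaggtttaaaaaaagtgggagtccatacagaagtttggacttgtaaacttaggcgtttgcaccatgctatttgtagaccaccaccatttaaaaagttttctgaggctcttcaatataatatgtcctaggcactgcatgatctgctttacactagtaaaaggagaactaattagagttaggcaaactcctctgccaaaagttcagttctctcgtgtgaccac
The Fcna window held GAGGAA 3 times, with first bases 182, 169 and 163 bases before the start. Vsig4 held it 2 times, Marco 1 time and Emr4 0 times. Of the windows not printed, Cd5l held it 1 time, on the opposite strand, and Spic 0 times. In all, 4 of the 6 windows held it, and 23.3% of 32851 RefSeq windows of this length did. TGAGTCA, the AP-1 sequence, was in 0 of the 6 windows and in 4.46% of all windows. A match is a string of letters and was not tied to binding in these tumors.

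The heme and iron genes come first. Spic (ENSMUSG00000004359.11, chromosome 10, 88674772-88685015, minus strand; positions are from GENCODE M21 on GRCm38) had 30.3, 18.5 and 27.4 CPM in Bcl6 tumors 1 to 3. In Smc3/Bcl6 tumors 1 to 6 it had 7.29, 33.8, 41.8, 136, 20.9 and 57.6 CPM. Tumors 4 and 6 were highest, tumor 1 was lowest, and the genotypes overlapped. In bulk tissue, fewer macrophages and less of an RNA in each macrophage cannot be told apart. Its Bcl6 mean was 25.4 ± 6.19 CPM (SD, n = 3), that of Smc3/Bcl6 was 49.5 ± 45.6 CPM (SD, n = 6), and the difference on the log2 scale was 0.96 (standard error 0.74). It came to 0.34 without Smc3/Bcl6 tumor 4 and to 0.02 (standard error 0.55) without tumors 4 and 6.

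Hmox1 (ENSMUSG00000005413.7, chromosome 8, 75093621-75100589, plus strand) encodes heme oxygenase 1, which opens the heme ring. Bcl6 tumors 1 to 3 were close together, with 114, 97.4 and 98.6 CPM. Smc3/Bcl6 tumors 1 to 6 had 45.7, 111, 164, 585, 158 and 285 CPM. This put 4 of the 6 Smc3/Bcl6 tumors above all Bcl6 tumors, 1 within their range and 1 below it. Its log2 fold change, 1.12 (standard error 0.67), was the largest of the 9 relative to its error. Without Smc3/Bcl6 tumors 4 and 6 it was 0.21 (standard error 0.44). The log2 ratio of Spic to Hmox1 had an SD of 0.40 over the 9 tumors, against 1.16 and 1.04 for their levels. Pearson's r of their log2 CPM was 0.94 over the 9 tumors and 0.84 over the 7 without Smc3/Bcl6 tumors 4 and 6. Such coefficients are a description of a few libraries, all of bulk tissue, and carry no p.

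Slc40a1 (ENSMUSG00000025993.5, chromosome 1, 45908068-45926523, minus strand) encodes ferroportin, the iron exporter. Its level was 134, 7.29 and 46.5 CPM in Bcl6 tumors 1 to 3. In Smc3/Bcl6 tumors 1 to 6 it was 20.9, 6.24, 8.20, 1125, 10.4 and 442 CPM. Smc3/Bcl6 tumors 4 and 6 were far above the rest, and the lower of them exceeded the highest other tumor, Bcl6 tumor 1, by 3.30-fold. Their part of the CPM summed over the 9 tumors was 87.0%. The log2 fold change turned from 2.10 (standard error 1.83) over all tumors to -2.42 (standard error 0.83) without them. Hmox1 and Slc40a1 act in sequence in heme iron recycling, but r of their log2 CPM was 0.68 over 9 tumors and -0.20 over the 7.

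Fcna (ENSMUSG00000026938.10, chromosome 2, 25624666-25628030, minus strand) encodes ficolin A, a secreted lectin that starts the lectin pathway of complement. It varied most of the 9 genes on the log scale. Bcl6 tumors 1 to 3 had 21.8, 3.56 and 10.1 CPM, and Smc3/Bcl6 tumors 1 to 6 had 1.73, 3.70, 0.940, 450, 1.5 and 150 CPM. Smc3/Bcl6 tumors 4 and 6 held 93.3% of the CPM summed over all tumors, and the lower of them was 6.87-fold above Bcl6 tumor 1. The other 4 Smc3/Bcl6 tumors lay at or below 3.70 CPM, a level that 2 of the 3 Bcl6 tumors exceeded. The mean was 11.8 ± 9.23 CPM (SD, n = 3) against 101 ± 181 CPM (SD, n = 6), and this second mean fell in the gap between the 4 low and the 2 high tumors. Fitted over all 9, its log2 fold change came to 3.10 (standard error 2.09), and to -2.60 (standard error 0.69) without Smc3/Bcl6 tumors 4 and 6. An antisense transcript, Fcnaos, spans Fcna and had 80 reads in all against 9530 for Fcna. Whether strand was used in counting is not given in the sources used here.

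Vsig4 (ENSMUSG00000044206.3, chromosome X, 96247203-96293438, minus strand) encodes CRIg, the complement receptor of the immunoglobulin family that resident macrophages use to clear C3-coated particles. It was the least abundant, with 415 reads over the 9 libraries. Smc3/Bcl6 tumors 4 and 6 had 272 and 119 of these reads, or 18.1 and 7.93 CPM. Bcl6 tumors 1 and 3 had 12 and 11 reads and Smc3/Bcl6 tumor 1 had 1 read. Bcl6 tumor 2 and Smc3/Bcl6 tumors 2, 3 and 5 had 0 reads, which allows up to 0.162, 0.317, 0.157 and 0.237 CPM (3 counts of each library, counting error only). The log2 fold change was 2.66 (standard error 2.33), and 1.22 (standard error 2.13) without Smc3/Bcl6 tumor 4. It rested on Smc3/Bcl6 tumors 4 and 6, which held 92.3% of the CPM summed over all tumors. Without both, Vsig4 could not be fitted.

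Cd5l (ENSMUSG00000015854.6, chromosome 3, 87357881-87371073, plus strand) encodes AIM, a secreted scavenger receptor protein that inhibits apoptosis of macrophages. Its levels were 44.2, 23.7 and 108 CPM in Bcl6 tumors 1 to 3 and 11, 64.5, 47.7, 265, 4.98 and 155 CPM in Smc3/Bcl6 tumors 1 to 6. The highest were again Smc3/Bcl6 tumors 4 and 6, but by only 1.43-fold over Bcl6 tumor 3. Smc3/Bcl6 tumor 5, which was high in Emr4, was the lowest. Its log2 fold change was 0.64 (standard error 1.06), and -0.94 (standard error 0.87) without the 2 highest tumors.

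Marco (ENSMUSG00000026390.2, chromosome 1, 120474538-120505024, minus strand) encodes a scavenger receptor for bacteria and particles on sinus and marginal zone macrophages. It followed another course. Bcl6 tumors 1 to 3 had 4.41, 18.1 and 11.1 CPM, and Smc3/Bcl6 tumors 1 to 6 had 0.833, 3.70, 21.4, 26.8, 7.66 and 8.93 CPM. Smc3/Bcl6 tumor 6 was exceeded by Smc3/Bcl6 tumor 3 and by Bcl6 tumors 2 and 3. The means were nearly the same, 11.2 ± 6.84 CPM (SD, n = 3) and 11.6 ± 10.3 CPM (SD, n = 6), with a log2 fold change of 0.05 (standard error 0.87).

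Emr4 (ENSMUSG00000032915.6, chromosome 17, 55749984-55853662, plus strand) encodes a 7-transmembrane adhesion receptor of the EGF-TM7 family, related to F4/80. Bcl6 tumors 1 to 3 had 16.1, 20.1 and 88.6 CPM. Smc3/Bcl6 tumors 1 to 6 had 1.32, 3.92, 20.2, 166, 70.7 and 58.2 CPM. The tumor order was Smc3/Bcl6 4, Bcl6 3, Smc3/Bcl6 5, Smc3/Bcl6 6 and then the rest, so the genotypes were interleaved. The fit over 9 tumors gave Emr4 a log2 fold change of 0.36 (standard error 1.20). That value rested on single tumors: it was 1.55 without Bcl6 tumor 3, -0.12 and -0.05 without Bcl6 tumors 1 and 2, -0.48 without Smc3/Bcl6 tumor 4, and -0.82 (standard error 1.22) without Smc3/Bcl6 tumors 4 and 6.

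Itgad (ENSMUSG00000070369.8, chromosome 7, 128154376-128223816, plus strand) encodes CD11d, a β2 integrin chain of splenic red pulp macrophages. It was even across the Bcl6 tumors, at 17.4, 27.7 and 26.9 CPM. Smc3/Bcl6 tumors 1 to 6 had 1.11, 9.42, 7.99, 201, 2.76 and 89.0 CPM. All 3 Bcl6 tumors thus lay between the 4 low and the 2 high Smc3/Bcl6 tumors. Its SD of log2 CPM was 0.37 over the Bcl6 tumors and 2.83 over the Smc3/Bcl6 tumors. The fit gave a log2 fold change of 1.11 (standard error 1.41) over all tumors and -2.22 (standard error 0.68) without Smc3/Bcl6 tumors 4 and 6. Cox6a2, on the opposite strand within Itgad, had 705 reads against 5647 for Itgad.

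**Figure D1:**
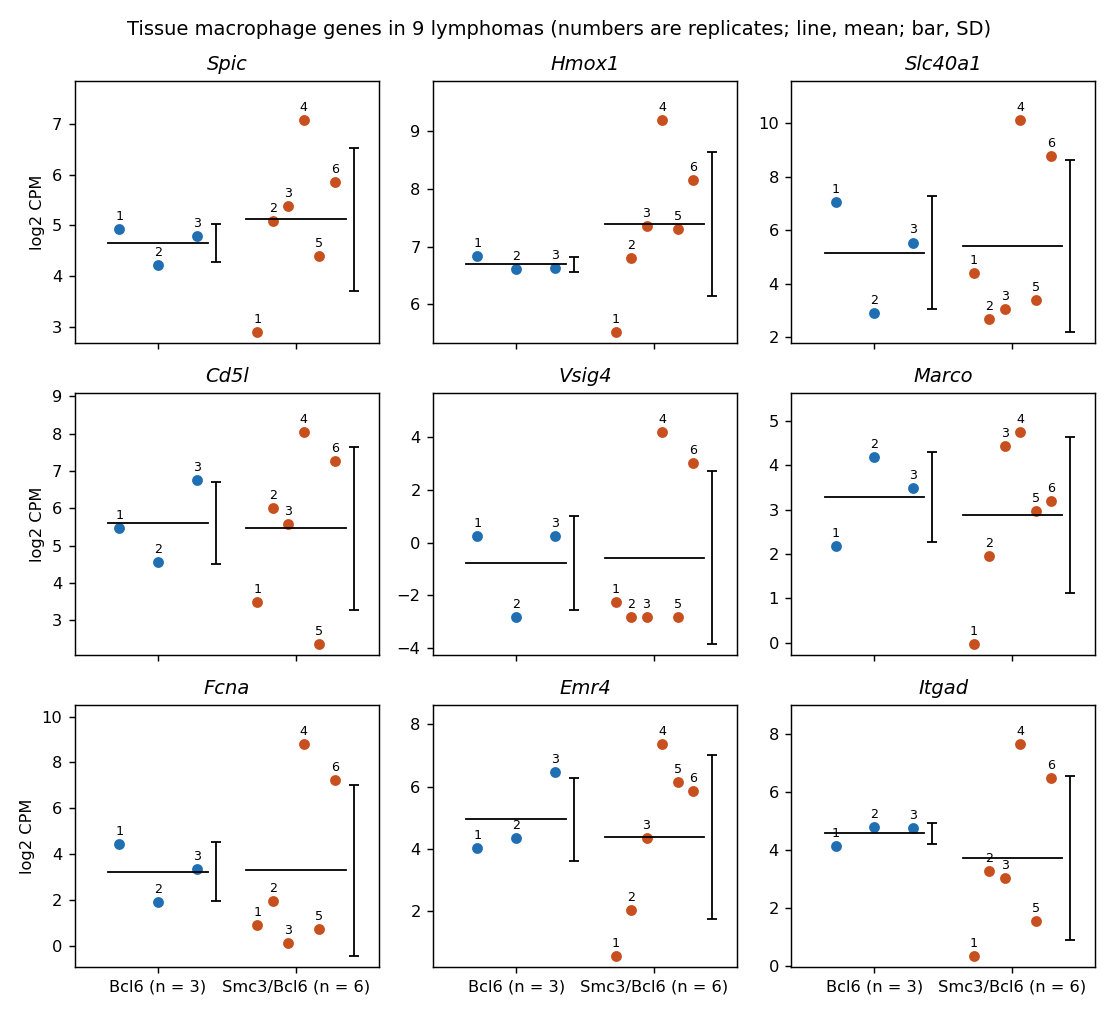
Level of each of the 9 genes in every tumor, in log2 CPM (prior count 2) on the vertical axis, 1 panel per gene and 1 point per library, labelled by replicate. The 3 Bcl6 tumors are left of the 6 Smc3/Bcl6 tumors, lines are means and bars SD. Smc3/Bcl6 tumor 4 is highest for all 9 genes. Smc3/Bcl6 tumors 4 and 6 are the 2 highest for 7 of the 9, Emr4 and Marco being the exceptions. They are the 2 highest for 7.7% of the 14057 genes tested. Libraries with 0 reads of Vsig4 sit at the value that the prior count gives.

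Across genes, levels can be compared only per length. In CPM per kb of exon, the median over the 9 tumors was 65.3 for Hmox1, 23.5 for Cd5l, 7.90 for Spic, 5.79 for Emr4, 4.64 for Marco, 3.85 for Itgad, 2.70 for Fcna, 2.32 for Slc40a1 and 0.0468 for Vsig4, against 45.5 for Csf1r. The ranges of neighbors in this order overlapped widely. Fcna ran from 0.684 to 328 and Hmox1 from 26.1 to 334, so that Fcna, low in most tumors, came close to the highest Hmox1 level in Smc3/Bcl6 tumor 4.

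No gene of the 9 separated the genotypes. The groups were apart, with no overlap, for 0 of the 9 and for 0.484% of the 14057 genes tested. The thresholds of the study were an unadjusted p of less than 0.1 together with a change of more than 0.56 on the log2 scale. With edgeR's quasi-likelihood test, 0 of the 9 passed them, where 2.15% of all genes passed, 1.28% as higher in Smc3/Bcl6 and 0.868% as lower. With DESeq2, the tool that the study names, Fcna and Hmox1 passed as higher, where 2.43% of all genes did. Their log2 fold changes there were 3.14 (standard error 1.76) and 1.15 (standard error 0.65). All 9 fitted log2 fold changes were above 0, with a median of 1.11 beside 0.06 over all genes tested. The fit weighs the highest counts, and the difference of mean log2 CPM was below 0 for 4 of the 9: -0.56 for Emr4, -0.85 for Itgad, -0.14 for Cd5l and -0.42 for Marco. Its median over the 9 was 0.05. Leaving out Smc3/Bcl6 tumor 1, which was low in most of the 9, put Spic and Hmox1 past the thresholds as higher, at 1.19 (standard error 0.58) and 1.33 (standard error 0.55), where 1.45% of all genes did. Leaving out Smc3/Bcl6 tumor 2 did so for Hmox1 alone, at 1.27 (standard error 0.68), beside 2.43% of all genes. Without tumors 4 and 6, 3 of the 8 genes that could be fitted, Itgad, Fcna and Slc40a1, passed the thresholds as lower, where 0.857% of all genes did, and the median was -0.88. Nothing is read from these shares either, since the same contrast chose the genes. The SD of log2 CPM was larger in the Smc3/Bcl6 tumors than in the Bcl6 tumors for 9 of 9 genes. The 9 shared extreme tumors: Smc3/Bcl6 tumor 4 was highest for all 9 and Smc3/Bcl6 tumor 1 lowest for 5. The comparison is of 6 tumors with 3, its share over all genes was not computed, and nothing is read from it.

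Tumors with the same replicate number were also taken as pairs, over replicates 1 to 3 of both genotypes. This leaves out Smc3/Bcl6 tumors 4 to 6, and Vsig4 could not be fitted. The values do not settle whether the numbers pair the tumors, and the paired standard errors depend on it. In these pairs Emr4, Itgad and Slc40a1 were lower in the Smc3/Bcl6 tumor in 3 of 3, Fcna, Cd5l, Vsig4 and Marco in 2 of 3, and Spic and Hmox1 in 1 of 3. The share of all genes with such counts was not computed. The paired log2 fold change was -2.70 (standard error 0.45) for Emr4, -2.39 (standard error 0.60) for Itgad, -2.46 (standard error 0.94) for Fcna and -1.89 (standard error 0.58) for Slc40a1. These 4 of 8 genes passed the thresholds as lower, where 2.24% of the 13360 genes tested passed, 1.9% as lower and 0.337% as higher. The choice of genes used this contrast, so nothing is read from the difference between these shares. Marco, at -1.31 (standard error 0.84), and Cd5l, at -0.67 (standard error 0.71), did not pass. Spic and Hmox1 were near 0 in the pairs, at -0.17 (standard error 0.64) and -0.16 (standard error 0.47), against 0.96 and 1.12 over the 9 tumors. Without the pairing, the same 6 tumors gave -2.34 (standard error 1.15) for Emr4 and -2.01 (standard error 0.75) for Itgad. Fcna was at -2.51 (standard error 0.80) and Slc40a1 at -2.39 (standard error 0.98). These 4 again passed as lower, where 1.92% of all genes passed, 0.659% as lower and 1.26% as higher.

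**Figure D2:**
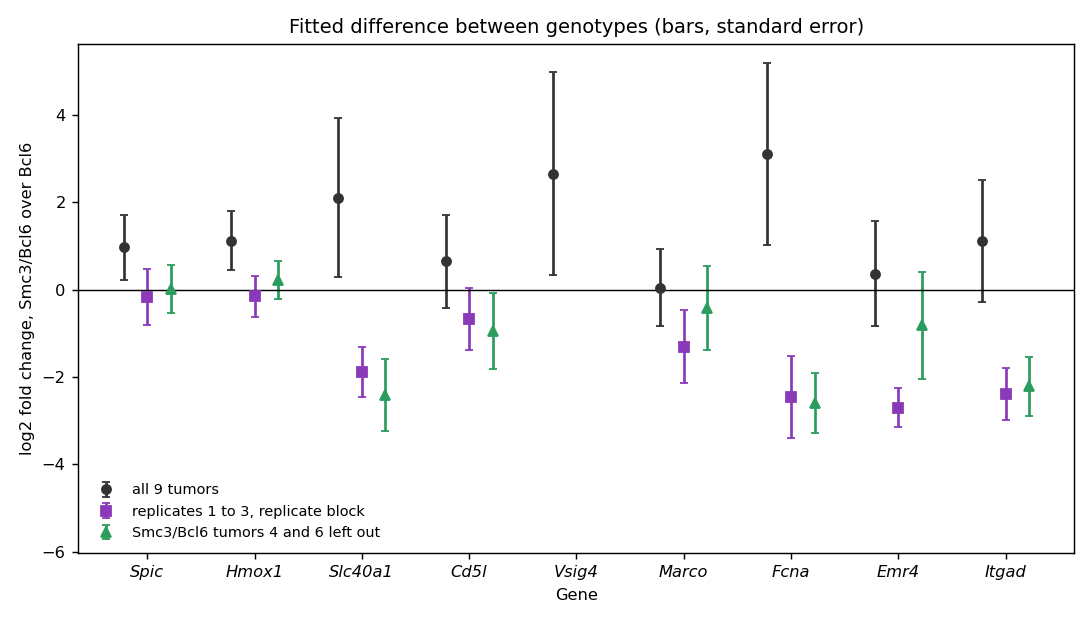
Log2 fold change, Smc3/Bcl6 minus Bcl6, of each gene with its standard error, from the fit over 9 tumors, from the pairs of replicates 1 to 3, and without Smc3/Bcl6 tumors 4 and 6. Slc40a1 goes from 2.10 over 9 tumors to -1.89 in the pairs, whereas Spic and Hmox1 lie near 0 in both smaller fits. Vsig4 has a value from the first fit only.

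Csf1r itself was at 82.0, 118 and 498 CPM in Bcl6 tumors 1 to 3, whereas it was at 10.7, 100, 361, 720, 263 and 375 CPM in Smc3/Bcl6 tumors 1 to 6. Its lowest and highest levels were thus both in Smc3/Bcl6 tumors. Each gene was therefore also given as reads per 100 Csf1r reads in the same library, which removes depth and scaling. Intervals are exact binomial at 95% and cover counting error only.

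Emr4 and Marco followed Csf1r most closely. Emr4 had 19.7, 17.1 and 17.8 reads per 100 Csf1r reads in Bcl6 tumors 1 to 3, a narrow range beside that of Csf1r itself. In Smc3/Bcl6 tumors 1 to 6 the ratio was 12.3, 3.92, 5.60, 23.0, 26.9 and 15.5. Smc3/Bcl6 tumors 1, 2, 3 and 6 were below the lowest Bcl6 tumor, and the intervals of tumors 2 and 3, 2.74 to 5.44 and 5.04 to 6.20, were apart from those of all Bcl6 tumors. Tumors 4 and 5 were higher than the Bcl6 tumors, but the interval of tumor 4, 22 to 24.0, overlapped that of Bcl6 tumor 1, 16.7 to 23.1. The SD of the log2 value over 9 tumors went from 2.2 for the level to 0.92 for the ratio. Marco narrowed in the same way, from 1.49 to 0.91. The ratio of Marco was highest in Bcl6 tumor 2, at 15.4, and lay between 2.22 and 7.79 in the other 8.

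Spic and Hmox1 did not narrow, with SDs of 1.16 and 1.14 for Spic and 1.04 and 1.20 for Hmox1. Smc3/Bcl6 tumor 1, the lowest in level for both, was the highest in ratio, with 68.2 Spic and 428 Hmox1 reads per 100 Csf1r reads. These ratios rest on 154 Csf1r reads, and against Cd68, a lysosomal protein of macrophages, the same tumor was not the highest: it had 9.92 Spic and 62.2 Hmox1 reads per 100 Cd68 reads, where Smc3/Bcl6 tumor 4 had 80.0 and 345. The lowest ratios were in Bcl6 tumor 3, at 5.51 and 19.8. In the 3 pairs of tumors with the same number, the ratio was lower in the Smc3/Bcl6 tumor in 0 of 3 for both genes and in 3 of 3 for Emr4 and Itgad. No share over all genes was computed for these counts.

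Slc40a1 gave the widest split of the ratios. Bcl6 tumor 1 had 163 reads per 100 Csf1r reads (150 to 177), and Smc3/Bcl6 tumors 1, 4 and 6 had 195 (160 to 239), 156 (153 to 160) and 118 (114 to 122). The other 5 tumors had between 2.27 and 9.34, with no value in between. Both genotypes were on both sides. In Smc3/Bcl6 tumor 1 the ratio came from 301 Slc40a1 and 154 Csf1r reads, so a low level of the exporter went with a still lower level of Csf1r.

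Fcna and Vsig4 put the same 4 tumors highest. Fcna had 26.6, 16.2, 62.5 and 39.9 reads per 100 Csf1r reads in Bcl6 tumor 1 and Smc3/Bcl6 tumors 1, 4 and 6, and between 0.260 and 3.70 in the other 5. Vsig4 had 1.29, 0.649, 2.51 and 2.12 there, the second of these from 1 read, and between 0 and 0.209 in the others. The order was noticed in these ratios, so no test is made of it. The gap between the lowest of the 4 and the highest of the 5 was 12.6-fold for Slc40a1. Against the summed C1qa, C1qb and C1qc reads that gap was 11.7-fold. Against Cd68 it was 1.5-fold, from 28.4 to 18.9 reads per 100 Cd68 reads, and Fcna and Vsig4 no longer had the order. Over 14023 genes, 0.578% had the order against Csf1r, 15.9% against the C1q genes and 16.3% against Cd68. Of the 9 genes, 3, 6 and 1 had it.

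Some marker genes, chosen after their values were seen, moved with this split. Lyz2, the lysozyme of monocytes and macrophages, had 112, 117, 235 and 96.3 CPM in Bcl6 tumor 1 and Smc3/Bcl6 tumors 1, 4 and 6, and between 2499 and 5897 CPM in the other 5. The 10 T cell markers summed to 123, 41.2, 104 and 76.6 CPM in the same 4 tumors and to between 638 and 2089 CPM in the others. The tissue labels do not follow it, since replicate 1 of each genotype is labelled mesenteric lymph node and Smc3/Bcl6 tumors 4 and 6 are labelled lymph node like the remaining 5. Of the other macrophage genes, some followed it. Aif1 had 17.1, 38.8, 28.3 and 75.6 CPM in the 4 tumors and between 118 and 197 CPM in the other 5. Ctss had 746, 724, 870 and 848 CPM there and between 1066 and 2164 CPM in the others. The 15 core macrophage genes, Lyz2 among them, summed to 1596, 1553, 4239 and 3521 CPM there. In the others that sum was between 5132 and 11240 CPM. Much of it was Lyz2, which gave 2499 of the 5132 CPM in Bcl6 tumor 2. The mean log2 CPM of the 15 genes, which weighs them alike, did not show the split among Smc3/Bcl6 tumors 2 to 6. It lay between 7.12 and 7.62 in these. Further macrophage genes did not follow the split. Mrc1, the mannose receptor, had 17.6, 2.64, 242 and 152 CPM in the 4 tumors and between 0.847 and 12.1 CPM in the other 5, and Csf1r was spread over both sides. The part of these cells in the ratios was not tested.

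**Figure D3:**
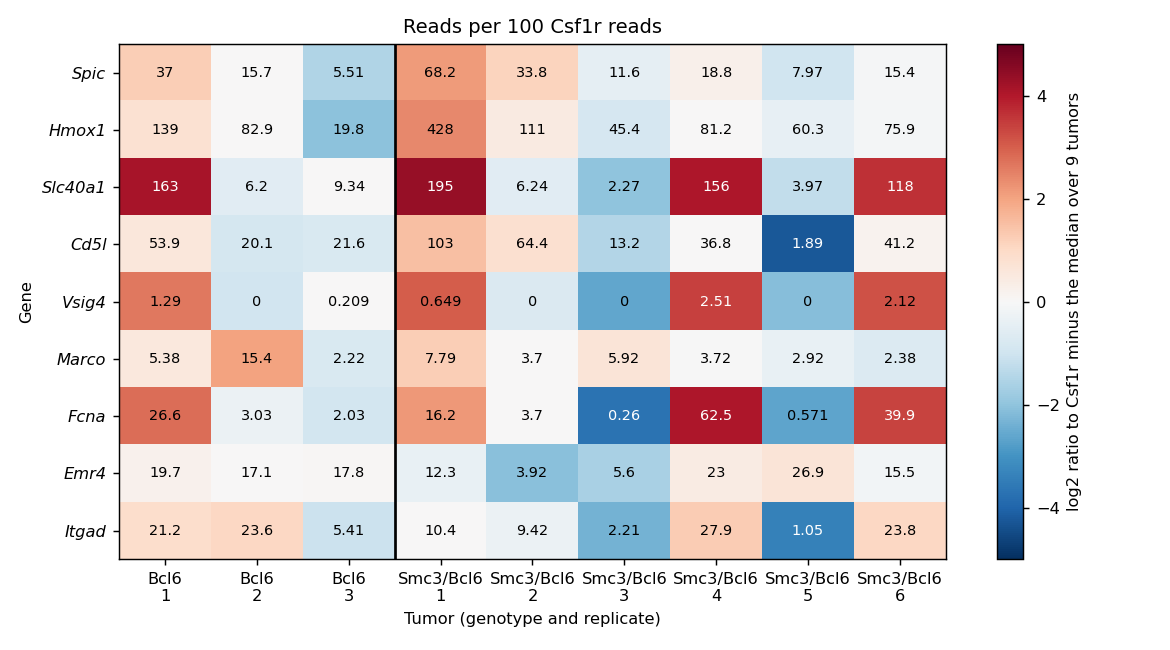
Reads per 100 Csf1r reads in the same library, printed for each gene (rows) in each tumor (columns, with a line between the genotypes). Color is the log2 ratio to Csf1r minus that gene's median over the 9 tumors, red above and blue below. Slc40a1 falls into 4 tumors between 118 and 195 and 5 tumors between 2.27 and 9.34, whereas Emr4 stays between 3.92 and 26.9.

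Itgad and Cd5l lay between these patterns. Itgad had 21.2, 23.6 and 5.41 reads per 100 Csf1r reads in Bcl6 tumors 1 to 3 and 10.4, 9.42, 2.21, 27.9, 1.05 and 23.8 in Smc3/Bcl6 tumors 1 to 6. By this measure Smc3/Bcl6 tumors 4 and 6 were near Bcl6 tumors 1 and 2 once the Csf1r reads were taken into account. Cd5l was highest in Smc3/Bcl6 tumor 1, at 103, and lowest in Smc3/Bcl6 tumor 5, at 1.89. As a log2 difference between genotype means, the ratio ran from -0.89 for Itgad to 0.65 for Hmox1, with a median over the 9 genes of 0.01.

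The 9 genes did not form a single block. Over 9 tumors all 36 pairs had a positive r of log2 CPM, from 0.22 to 0.98. Without Smc3/Bcl6 tumors 4 and 6, 29 of the 36 were positive, the median fell from 0.73 to 0.40, and the range was -0.26 to 0.94. Among the closest pairs, beside Spic and Hmox1, were Vsig4 and Slc40a1 (0.98, and 0.94 without the 2 tumors), Fcna and Vsig4 (0.97 and 0.87) and Fcna and Slc40a1 (0.95 and 0.80). Emr4 and Marco went with Csf1r, at 0.91 and 0.87 over 9 tumors and 0.88 and 0.86 over 7. Spic and Hmox1 also did, at 0.81 and 0.80 over 9 tumors and 0.78 and 0.82 over 7. Fcna and Slc40a1 did not, at 0.47 and 0.39 over 9 tumors and 0.05 and -0.10 over 7.

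Among 10330 genes with a mean of at least 5 CPM, the 5 whose log2 CPM was most like the mean of the 9 were Stab2 (r = 0.967 over 9 tumors), C6 (0.957), Ptgs1 (0.941), Rsad2 (0.936) and Trf (0.927). Without Smc3/Bcl6 tumors 4 and 6 these values were 0.851, 0.841, 0.800, 0.681 and 0.763. Over the 9 genes taken singly, r of the 3 nearest to each was between 0.733 and 0.978 without those tumors. Stab2, the hyaluronan receptor of sinusoidal endothelium, had 44.0 and 18.7 CPM in Smc3/Bcl6 tumors 4 and 6 and between 0.416 and 4.59 CPM elsewhere. The nearest to Fcna were C6 (0.966), Cd163 (0.962) and Gadd45a (0.931). Zfp119a, Cd163 and Mrc1 were nearest to Vsig4, at 0.967, 0.966 and 0.964. Slc40a1 had Zfp119a (0.970), Lipe (0.966) and Mrc1 (0.963). For Itgad they were Emr1 (0.921), Pparg (0.920) and Ccr3 (0.913), and for Cd5l they were Clec1b (0.971), Rnf141 (0.946) and Ccr3 (0.935). Spic was nearest to Stab2 (0.936), Trf (0.917) and Slpi (0.912), and Hmox1 to Trf and Crebl2 (both 0.958) and Slc16a9 (0.917). The nearest to Emr4 were Adrbk2 (0.948), Tlr4 (0.932) and Slc7a8 (0.931). Those of Marco were Klrb1c (0.978), Aig1 (0.973) and Ttyh2 (0.959).

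Cd163, the receptor that takes up hemoglobin bound to haptoglobin, had 67.4 and 66.8 CPM in Smc3/Bcl6 tumors 4 and 6 and between 0 and 1.68 CPM in the other 7. Mrc1 was likewise highest there. The 15 core macrophage genes as a whole did not follow: they summed to 4239 and 3521 CPM in these tumors, between 1596 and 10780 CPM in the Bcl6 tumors, and up to 11240 CPM in Smc3/Bcl6 tumor 3. Of the 15, only Mrc1 had its 2 highest levels in Smc3/Bcl6 tumors 4 and 6, and 7.7% of the 14057 genes tested did.

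Red cell RNA moved with them. The 10 erythroid markers summed to 13150 CPM in Smc3/Bcl6 tumor 4 and 4362 CPM in tumor 6. Smc3/Bcl6 tumor 2, low in Slc40a1, reached 4664 CPM, and the remaining 6 lay from 47.6 to 1476 CPM. Of the 10 markers, 7 had their 2 highest levels in tumors 4 and 6, beside 7.7% of all genes tested. Those past the thresholds as higher in Smc3/Bcl6 included Slc4a1 (log2 fold change 4.69, standard error 2.31), Klf1 (3.47, standard error 1.84) and Epb4.2 (4.79, standard error 2.45). Of all genes, 1.28% passed as higher. Without tumors 4 and 6, 0 of the 8 erythroid markers fitted passed, and Slc4a1 was at -0.62 (standard error 1.01). In the pairs of replicates 1 to 3, again 0 of 8 passed, and Slc4a1 was at -0.37 (standard error 1.58). Klf1, the transcription factor of erythroid precursors, had 30.1 and 15.4 CPM in tumors 4 and 6 and at most 1.25 CPM elsewhere. Hepatocyte markers summed to at most 1.30 CPM in any tumor. Eosinophil markers were also high in these tumors: the 6 summed to 241 and 145 CPM in Smc3/Bcl6 tumors 4 and 6 and to between 7.11 and 109 CPM in the other 7. Ccr3, the eotaxin receptor of eosinophils and among the nearest genes to Itgad and Cd5l, had 145 and 59.6 CPM there and 60.2 CPM in Bcl6 tumor 3. The part of erythroid and eosinophil RNA in the levels of the 9 genes was not tested.

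**Figure D4:**
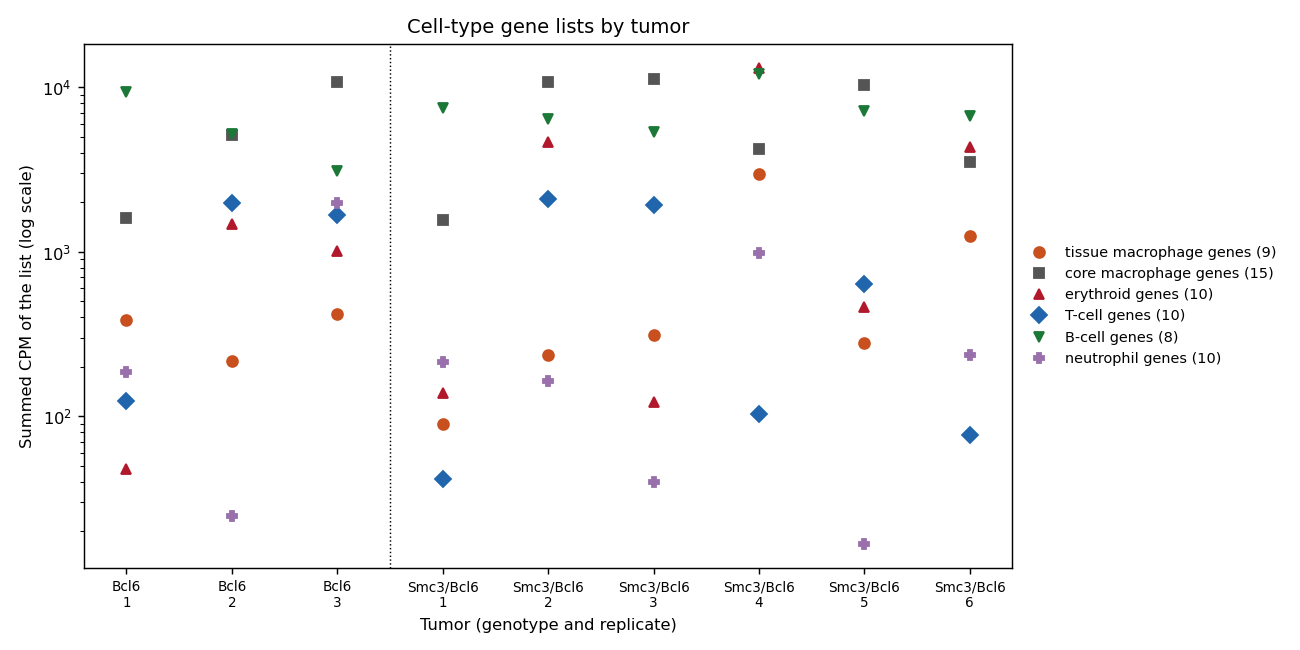
Summed CPM of gene lists in every tumor, on a log axis, 1 symbol per list, with the 9 tissue macrophage genes beside core macrophage, erythroid, T cell, B cell and neutrophil markers, and a dotted line between the genotypes. The 9 genes reach 2974 and 1253 CPM in Smc3/Bcl6 tumors 4 and 6 and lie between 90.0 and 418 CPM in the other 7, whereas the core macrophage sum is higher in 5 other tumors than in tumor 4.

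The other genes of these pathways were compared by the edgeR quasi-likelihood test over all 9 tumors. Of 82 tested in 10 lists, 1 passed the thresholds as higher and 0 as lower, beside 1.28% and 0.868% of all genes tested. This was Apoe, the lipid carrier and LXR target, at 417, 998 and 1845 CPM in Bcl6 tumors 1 to 3 and between 1030 and 3526 CPM in the Smc3/Bcl6 tumors. Apoe had a log2 fold change of 1.04 with a standard error of 0.52, and its adjusted p by edgeR with Benjamini-Hochberg adjustment was 1. The other LXR targets did not pass (Abca1, 0.49, standard error 0.85). Over all genes, 0 had an adjusted p below 0.05 and 79 an unadjusted p below 0.05, where DESeq2 had 0 and 209. The median log2 fold change was 0.40 over 15 core macrophage genes, 0.54 over 12 tissue macrophage subset genes and 0.11 over 18 iron and heme handling genes. It was 0.12 over 7 NRF2 targets, 0.04 over 7 LXR targets, -0.43 over 6 ficolin, mannose-binding lectin and complement genes and -0.30 over 4 β2 integrin genes. For 2 EGF-TM7 receptor genes, 12 scavenger receptor genes and 5 ETS genes related to Spic it was 0.01, 0.36 and -0.08.

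In the pairs of replicates 1 to 3, 10 of 78 of these genes passed as lower and 2 as higher, beside 1.9% and 0.337% of the 13360 genes tested. Csf1r was among the lower ones, at -1.19 (standard error 0.60), as were Emr1, which encodes F4/80, at -1.88 (standard error 0.73), and Mertk, a receptor for dying cells, at -1.60 (standard error 0.60). The others were Mrc1, Siglec1, Stab1, C4b, Itgam, Cd5 and Cd6. The higher ones were Apoe at 0.95 (standard error 0.43) and Blvrb, a biliverdin reductase, at 1.17 (standard error 0.55). The adjusted p by edgeR's test with Benjamini-Hochberg adjustment was 0.983 for each of these 12. The iron and heme handling list, which holds Blvrb, had 1 higher and 0 lower of 17 in the pairs, whereas Slc40a1 passed as lower and Hmox1 did not pass.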

How the data were processed

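RNA-seq was analysed with 1 library from each of 9 tumors. The authors ran the nf-core RNA-seq pipeline, aligned with STAR to mm10, counted reads on genes with featureCounts, and deposited the raw counts with no scaling. Whether strand was used is not given in the sources used here. Per the labels' processing notes, their own statistics used R 4.0.2 and DESeq2 1.28.1. All 9 columns matched a sample, with 0 columns left over. Totals ranged from 10156728 to 17774577 counts per library. Positions and exon lengths were taken from GENCODE M21 (GRCm38), where 97.9% of the 41128 identifiers had an entry.

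Counts were scaled by TMM, filtered by genotype and compared with the quasi-likelihood test of edgeR 4.0.16 in R 4.3.3, with Benjamini-Hochberg adjustment and the thresholds of the study. Levels are CPM, and log2 CPM has a prior count of 2. Alternatives were DESeq2 1.42.0, limma 3.58.1 with quality weights, other scalings and filters, the tissue label, other reference genes for the ratio, the pairing and each tumor left out. The 3 chosen after seeing the data were library totals without TMM, Smc3/Bcl6 tumors 4 and 6 left out together, and the pairing without pair 2. The code was tested on simulated data.

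The genes and lists were chosen with earlier results of these data known. Besides the 9 genes and Csf1r, those named are the most correlated genes (at least 5 CPM on average), and from each list the genes past the thresholds or up to 2 with the largest change. Genes named beyond this, such as Lyz2, Abca1 and Klf1, were chosen after their values were seen. A further gene is not reported here.

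Replicate numbers 1 to 3 are shared by the genotypes and come from the labels. Deviations from the genotype means of tumors with the same number correlated at 0.443, 0.113 and 0.155. Each was above 0.1, and on this rule the numbers were taken to pair the tumors. Bcl6 tumor 2 and Smc3/Bcl6 tumor 3, with differing numbers, were at 0.356, above pairs 2 and 3. The tumors of pair 1 also share the mesenteric label. The values therefore do not settle whether the numbers pair the tumors, and the paired standard errors depend on it.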

Additional observations from a re-analysis of the deposited data

Results flagged for a closer look

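Of 39 measures examined, 1 had a tumor far from the rest of its genotype. The mean log2 CPM of the 15 core macrophage genes was 4.44 in Smc3/Bcl6 tumor 1 and between 7.12 and 7.62 in the other 5 Smc3/Bcl6 tumors. The gap was 0.842 of the whole range, against a critical value of 0.625 for 6 tumors. Chance alone gives a gap past this critical value in about 1 of 20 groups, or 1.95 of 39 measures.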

How the results depend on the processing

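For 6 of the 9 genes, passing the thresholds as lower depended on which tumors were used. Marco, Spic and Hmox1 passed as lower in no setting run. Spic and Hmox1 passed as higher without Smc3/Bcl6 tumor 1. Hmox1 also did so without Smc3/Bcl6 tumor 2, with DESeq2 and without the filter on low counts. Fcna passed as higher with DESeq2, at 3.14. In the fit with the replicate block (replicates 1 to 3), Emr4 had a log2 fold change of -2.70, Itgad -2.39, Fcna -2.46 and Slc40a1 -1.89, with a median of -1.60 over the 8 genes fitted. Replicates 1 to 3 without the pairing gave -2.34, -2.01, -2.51 and -2.39, with a median of -1.30. The block without pair 2 gave -2.81, -2.80, -3.54 and -2.60, and also -1.59 for Cd5l and -4.79 for Vsig4, with a median of -2.60. With Smc3/Bcl6 tumors 4 and 6 left out, Itgad had -2.22, Fcna -2.60 and Slc40a1 -2.42, with a median of -0.88. Vsig4 could not be fitted in the first, second and last of these. Of the 9 genes, 4, 4, 6 and 3 passed the thresholds in these 4 settings, 2 with DESeq2 and 1 without the filter on low counts, against 0 as reported. Of all genes, 1.9%, 0.659%, 1.34% and 0.857% passed as lower in those 4 settings, and 2.43% as higher with DESeq2 and 2.18% without the filter. The cause was not tested.

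Of the genes tested, 180 were higher and 122 lower. The higher count was 342 with DESeq2, 642 with limma, 576 without the filter, 45 with the block, 54 with the block without pair 2, 108 without TMM and 46 at the stricter threshold of 0.05. The lower count was 1002 with limma, 812 without the filter, 192 with the tissue label, 254 with the block and 31 at the stricter threshold. The share higher among these genes went from 59.6% to 38.2% without TMM. Leaving out 1 tumor gave 84 (without Bcl6 tumor 2) to 339 (without Smc3/Bcl6 tumor 2) higher, 61 (without Smc3/Bcl6 tumor 6) to 321 (without Smc3/Bcl6 tumor 3) lower, and 0 to 2 of the 9 genes. The 1 other pathway gene became 6 with DESeq2, 11 with limma, 5 without the filter, 6 with the tissue label, 12 with the block, 3 without the pairing, 14 without pair 2, 2 without tumors 4 and 6, 0 without TMM, 0 at the stricter threshold and 1 to 7 with 1 tumor left out. The median over Csf1r, 0.01, lay from -0.94 (without tumors 4 and 6) to 1.09 (without Bcl6 tumor 1), within its spread of 1.27 (SD) in all 17 alternatives run. Depth limits Vsig4, with 415 reads in all.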
